A study of Mus musculus with 2 samples.

Results

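Calmodulin and its main brain effectors, the CaM kinase II holoenzyme and the phosphatase calcineurin, were examined through 9 genes: Calm2 and Calm3, the kinase subunit genes Camk2a, Camk2b, Camk2d and Camk2g, the calcineurin A genes Ppp3ca and Ppp3cb, and the calcineurin B gene Ppp3r1. They were selected by name, after mapping of the deposited gene identifiers to symbols, from 43346 mouse gene rows, and all 9 had a row in both libraries. The study holds 2 RNA-seq libraries from the midbrain of newborn mice (age 0 days, strain B6NCrl), one from pup 1 and one from pup 3. No mutation, treatment or control group is named, and sex was not collected. Each library was made by a Smart-seq protocol from 13 pg of total RNA longer than 200 nt, which the labels equate with the content of 1 cell, with synthetic spike-in RNA added. The assay is titled single cell RNA-seq, but the material was RNA extracted from a whole midbrain, so each value is a mixture over cell types, and fewer cells of a type and less RNA per cell cannot be told apart. Both libraries belong to 1 group, so no condition was compared, and an exact two-sided test over 2 pups cannot give a p below 0.5. Differences between the pups are therefore described without a test, and a difference between animals cannot be told apart from the sampling of molecules at this input.

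Calmodulin is a small protein that binds calcium and then engages other proteins, and it is encoded by more than a single gene. CaM kinase II is a serine/threonine kinase that assembles into large rings of subunits from 4 genes; calcium-loaded calmodulin activates it, and in neurons it is known for its part in synaptic plasticity. In the adult forebrain the alpha subunit, from Camk2a, is the best known form, while beta, from Camk2b, binds F-actin and is known from earlier development. Calcineurin is a phosphatase made of a catalytic A subunit, which also binds calmodulin, and a calcium-binding B subunit, and it acts on NFAT transcription factors and on synaptic proteins.

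The libraries held 26583225 estimated counts in pup 1 and 33142647 in pup 3, and a floor of 3 counts corresponded to 0.113 and 0.0905 CPM (counts scaled to the library total). At a level of 1 TPM or more (TPM is a length-corrected share of the transcripts in a library), 10166 and 9367 genes were detected. The tissue label was checked against marker genes. All 8 pan-neuronal markers were detected in both pups, led by Tubb3 (5927 and 1794 TPM in pups 1 and 3), Stmn2 (2056 and 2565 TPM) and Uchl1 (776 and 1870 TPM). Of 8 midbrain neuron markers 6 were detected in both, led by Slc17a6 (180 and 97.9 TPM), Gad1 (137 and 95.3 TPM) and Meis2 (31.8 and 102 TPM). The regional factors Otx2 (40.6 and 0.4 TPM) and Pax7 (0.14 and 6.76 TPM) of that list, named after their values were seen, were over 4-fold apart in opposite directions. All 8 Hox genes of the hindbrain and spinal cord list were at 0 counts in both pups. Of 8 cortical excitatory markers 2 were detected in both, and Slc17a7, Tbr1, Emx1 and Fezf2 were at 0 counts. Their summed level was 53.4 TPM in pup 1 and 35.5 TPM in pup 3, mostly from Neurod6 (46.5 and 28.1 TPM).

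Every member was detected in both pups, whereas 60.8% of the 12144 genes detected in either pup, and 89.6% of the 6031 genes with a mean level of 20 TPM or more, were detected in both. The levels spanned a wide range. Calm2 stood highest at 2435 TPM in pup 1 and 3707 TPM in pup 3 (mean 3071 ± 899, SD, n = 2), ranks 32 and 25 among all genes. Camk2a stood lowest by mean at 35.6 and 11.1 TPM (mean 23.4 ± 17.3), ranks 4165 and 7100. The other 7 lay between them by mean level, from 43.2 TPM for Camk2d to 434 TPM for Calm3. The interval that the files give with each TPM is drawn around the posterior mean and covers the assignment and counting of reads within a library, not the difference between pups. It is centred slightly off the TPM itself, so that for Calm2 in pup 1 it runs from 2333 to 2378 TPM, just under the value.

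**Figure D1:**
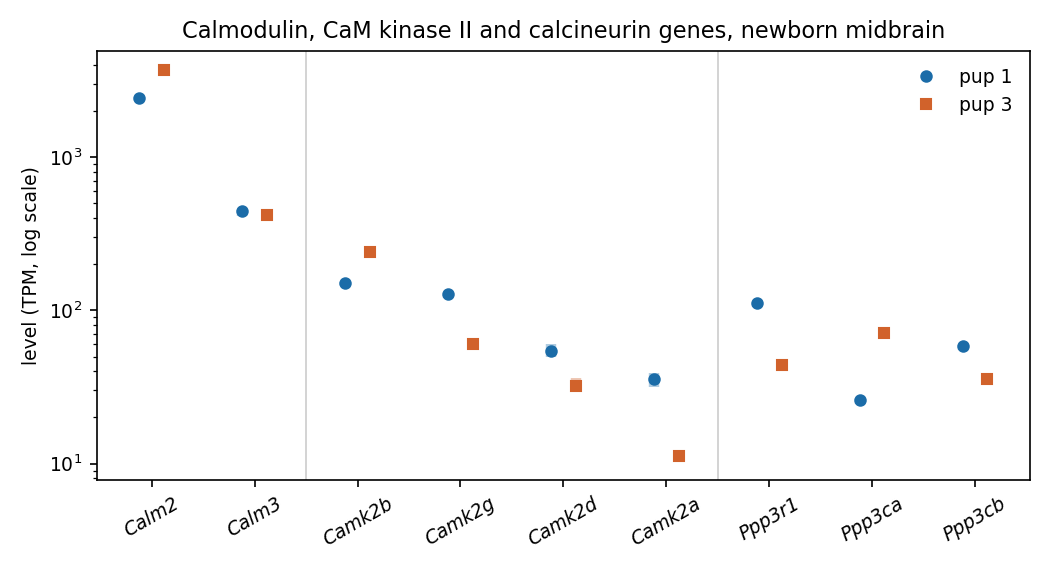
Level of each gene in TPM (log axis) in pup 1 (circles) and pup 3 (squares), n = 1 library per pup; shaded bars, mostly hidden by the symbols, are the deposited 95% intervals. Calm2 is highest at 2435 and 3707 TPM, Camk2a is the lowest CaM kinase II gene in both, and Ppp3ca and Ppp3r1 exchange places between the pups.

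Calm2 (ENSMUSG00000036438.8, chromosome 17, 87433412 to 87446935, minus strand, GRCm38) and Calm3 (ENSMUSG00000019370.10, chromosome 7, 16915379 to 16924114, minus strand) encode the same protein from different nucleotides. Their coding sequences, without the stop codon, differ at 78 of 447 bases, 74 of them at the third position of a codon, and none of the 149 encoded residues differs. This is the basis on which reads of the paralogues can be told apart within the coding region. The first 120 coding bases of each are shown from GENCODE transcripts, 5′ to 3′, with the 18 differing bases in capitals.
Calm2-201: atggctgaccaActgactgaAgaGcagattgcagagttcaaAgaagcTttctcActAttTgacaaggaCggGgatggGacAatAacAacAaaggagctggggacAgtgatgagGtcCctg
Calm3-201: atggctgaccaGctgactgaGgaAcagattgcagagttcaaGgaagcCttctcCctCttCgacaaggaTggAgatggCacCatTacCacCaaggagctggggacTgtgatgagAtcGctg

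Calm2 exceeded Calm3 in both pups. Calm3 was at 449 TPM in pup 1 and 419 TPM in pup 3 (mean 434 ± 21.1), from 9589 and 16409 counts. The within-library log2 ratio of Calm2 over Calm3, computed on TPM + 1, was 2.44 in pup 1 and 3.14 in pup 3 (mean 2.79 ± 0.50, SD, n = 2), so the difference between the genes was larger than the spread between the pups, and in each pup the TPM intervals of the genes lay apart. In linear terms Calm2 was 5.43 and 8.85 times Calm3. Among calmodulin-like genes, Calm4, Calm5 and Calml3 had 0 counts in both pups, and Calml4 had 0 counts in pup 1 and 11.9 TPM in pup 3.

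The calmodulin transcripts were nearly uniform for Calm2 and mixed for Calm3. Calm2-201, the 1205-base coding transcript, held 99.5% and 99.8% of the gene's TPM. Calm3-201, the 2290-base coding transcript, held 50.6% in pup 1 and 73.5% in pup 3. The rest of Calm3 was mainly Calm3-204, a 482-base transcript annotated without a coding sequence, at 41.8% and 21.7% of TPM. By counts Calm3-204 held only 12.2% and 4.83% (TPM divides by length). When every gene was given the length of its longest protein-coding transcript, Calm3 came to 269 and 329 TPM-like units in pups 1 and 3 and its mean fell to 299, while Calm2 stayed at 2431 and 3703.

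The CaM kinase II genes kept one order in both pups, Camk2b over Camk2g over Camk2d over Camk2a. Camk2b (ENSMUSG00000057897.10, chromosome 11, 5969644 to 6066362, minus strand), for the beta subunit, was at 152 TPM in pup 1 and 239.8 TPM in pup 3 (mean 196 ± 62.4). Camk2g (ENSMUSG00000021820.12, chromosome 14, 20734875 to 20794088, minus strand), for the gamma subunit, was at 128 and 60.6 TPM (mean 94.4 ± 47.8). Camk2d (ENSMUSG00000053819.12, chromosome 3, 126596302 to 126846326, plus strand), for the delta subunit, was at 54.1 and 32.3 TPM (mean 43.2 ± 15.4). Gamma and delta are the subunits known from most tissues, alpha and beta those known chiefly from neurons. Camk2a (ENSMUSG00000024617.12, chromosome 18, 60925618 to 60988152, plus strand) was at 35.6 and 11.1 TPM, from 1827 and 1235 counts. Pup 1 was the higher pup for Camk2g, Camk2d and Camk2a, and pup 3 for Camk2b. The summed cortical marker level (53.4 and 35.5 TPM) and Camk2a were both lower in pup 3, and the part of any cortical RNA in the Camk2a level was not tested.

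Camk2b exceeded Camk2a by a log2 ratio of 2.06 in pup 1 and 4.31 in pup 3 (mean 3.18 ± 1.59, SD, n = 2), which is 4.25-fold and 21.6-fold in TPM. The direction was the same in both pups and the intervals of the 2 genes lay apart in each, while the size differed by more than 2 log2 units. That gap between the pups depends on the transcript length used: at 1 fixed length the ratio was 6.01-fold and 10-fold (mean log2 2.87 ± 0.48), and by counts the mean log2 ratio was 2.62 ± 0.51. Camk2b over Camk2d gave 1.47 and 2.86 (mean 2.16 ± 0.98). Camk2b over Camk2g gave 0.24 and 1.97 (mean 1.10 ± 1.22), and here the SD was larger than the mean. At 1 fixed length this pair stood at 1.09-fold and 1.85-fold (mean log2 0.50 ± 0.54), and by counts its mean log2 ratio was 0.63 ± 0.54. In pup 1 these 2 genes were near each other, with intervals of 145 to 152 TPM for Camk2b and 121 to 127 TPM for Camk2g. Camk2g over Camk2a gave 1.82 and 2.34, Camk2g over Camk2d 1.23 and 0.89, and Camk2d over Camk2a 0.59 and 1.46. Thus all 6 pairs within the kinase had the same sign in both pups, and the smallest single ratio was that of Camk2b over Camk2g in pup 1. The same order was read from FPKM, from posterior mean TPM, from counts and from levels at 1 fixed length per gene.

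As a family the kinase genes summed to 369 TPM in pup 1 and 344 TPM in pup 3, a level total by this measure only: without length correction the sum was 799 and 578 CPM, and at 1 fixed length per gene (that of its longest protein-coding transcript) 328 and 210.5. Camk2b held 41.0% of the summed TPM in pup 1 and 69.7% in pup 3, Camk2g 34.7% and 17.6%, Camk2d 14.6% and 9.38%, and Camk2a 9.64% and 3.24%. By counts the same shares were 42.5% and 53.1% for Camk2b and 8.78% and 6.59% for Camk2a. The gap in the Camk2b share between the pups is smaller by counts. The mean transcript length that the files used for Camk2b was 3676 bases in pup 1 and 1921 bases in pup 3. For Camk2a that length went the other way, from 3246 to 4970 bases.

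**Figure D2:**
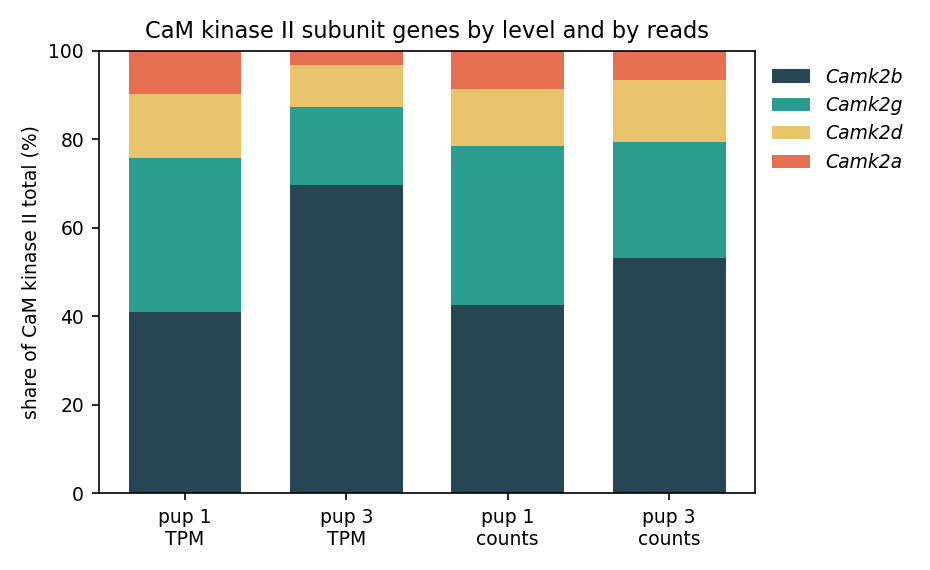
Share of the summed CaM kinase II signal held by each subunit gene (% of the 4 genes), by TPM in the left pair of bars and by estimated counts in the right pair, 1 library per pup. Camk2b is the largest segment in all 4 bars, at 41.0% and 69.7% of TPM and 42.5% and 53.1% of counts, and Camk2a the smallest.

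All 4 kinase genes had a different leading transcript in the 2 pups. The models differ in the variable linker between the regulatory region and the association domain, where the family is known for alternative splicing, and several also differ at the 3′ end. Exons of that linker and the matching exons of calcineurin A were chosen for description after the transcript shares had been seen. For each, the share is the TPM of transcripts that hold the exon over the TPM of all transcripts that span its position; the files assign reads to whole transcripts, so which feature of a model drew the reads was not tested.

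A 33-base exon (11 codons) is found at the same place of the linker in Camk2a, Camk2d and Camk2g, and is known as the exon that gives the alpha-B, delta-B and gamma-A forms their nuclear localisation signal. Transcripts with the exon were at 0 in pup 3 alone in all 3 genes, and the exons of delta and gamma are printed. Of their 33 bases 26 are identical, and capitals mark the 7 that differ. The Camk2a exon is 84.8% identical to each of them. They lie at chr3:126802937-126802969 (plus strand) and chr14:20747819-20747851 (minus strand).
Camk2d: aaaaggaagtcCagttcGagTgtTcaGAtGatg
Camk2g: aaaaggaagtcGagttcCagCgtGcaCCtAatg

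Transcripts with the 33-base exon were present in pup 1 and had an estimate of 0 in pup 3 for all 3 genes. In Camk2a they held 81.1% of spanning TPM in pup 1, through Camk2a-201. In Camk2g they held 61.1%, through Camk2g-201. In Camk2d they held 22.6% by TPM but 5.87% by counts, from short or uncertain models, Camk2d-218 and Camk2d-205. The lengths of these models in the files differ from those in the newer annotation by 202 and 390 bases. Camk2d-218, a retained-intron model annotated without a coding sequence, gave 8.22 TPM from 39 counts in pup 1. The coding model Camk2d-205 gave 2.76 TPM. The Camk2d value is the least secure of the 3. In pup 3 the spanning transcripts had 1235 counts for Camk2a, 2551 for Camk2d and 4930 for Camk2g. A floor of 3 counts is 0.243%, 0.118% and 0.0609% of these. Those shares do not bound the use of the exon, because the counts are of whole transcripts. Reads that touch the exon were not counted apart. The files' upper bounds for the transcripts, which cover the division of reads among models, were higher than the floor: 0.0493 TPM for Camk2a-201 (0.443% of spanning TPM), 0.716 TPM for Camk2g-201 (1.18%), and 1.81 TPM for Camk2d-218 (6.46%) and 0.210 TPM for Camk2d-205 (0.752%).

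The Camk2g models differ inside the gene and end alike, with 3′ untranslated stretches of 1990 bases in Camk2g-201 and 1982 bases in Camk2g-202. These structures are from the newer annotation, in which Camk2g-202 is 66 bases and Camk2g-203 37 bases shorter than the models that were quantified, so the Camk2g shares are less certain too. Camk2g-201 led in pup 1 with 61.1%, beside Camk2g-203 with 26.4% and Camk2g-202 with 12.5%, and Camk2g-202 held 100% in pup 3. A 69-base exon downstream (23 codons, chr14:20745792-20745860) was in 73.6% of spanning TPM in pup 1 and 100% in pup 3. Pup 1 thus held a mixture of the 3 gamma forms, and the pup 3 library was assigned to 1 of them. For Camk2a, by contrast, the leading models differ at the end as well: Camk2a-201 led in pup 1 with 72.5% and has 1627 bases of 3′ untranslated sequence, and Camk2a-203 held 100% in pup 3 and has 3372. In pup 1 Camk2a-203 held 16.8% and Camk2a-207, a 530-base model, 10.6%.

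In Camk2b and Camk2d a further linker exon is alike in sequence, of 45 bases in Camk2b and 42 bases in Camk2d. These exons are printed in capitals, with 12 bases of the neighbouring exons in lower case, beside the 75-base exon of Camk2b that separated the pups most in that gene. Their positions are chr11:5981070-5981114 and chr11:5987057-5987131 (minus strand) and chr3:126808208-126808249 (plus strand).
Camk2b 45-base exon: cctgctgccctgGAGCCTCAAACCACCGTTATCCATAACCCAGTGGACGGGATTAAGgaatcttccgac
Camk2d 42-base exon: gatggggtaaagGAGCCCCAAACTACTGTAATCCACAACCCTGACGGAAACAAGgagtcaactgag
Camk2b 75-base exon: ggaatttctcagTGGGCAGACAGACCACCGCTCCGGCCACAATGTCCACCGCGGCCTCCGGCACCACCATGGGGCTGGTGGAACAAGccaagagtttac

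Camk2b was assigned mostly to forms with the 75-base exon in pup 1 and to forms without it in pup 3. The exon was in 85.5% of spanning TPM in pup 1 and 9.85% in pup 3, or 90.7% and 19.0% by counts. The 45-base exon was in 89.8% and 53.7%, and the 129-base exon nearer the 3′ end in only 3.09% and 1.31%. Camk2b-209 led in pup 1 with 63.3%, next to Camk2b-215, annotated without a coding sequence, with 26.1%. In pup 3 Camk2b-201 held 46.3% and Camk2b-207 43.7%. Camk2b-209 carries 2184 bases of 3′ untranslated sequence against 156 for Camk2b-201 and 1 for Camk2b-207, so the leading Camk2b models differ both in a linker exon and in the length of the 3′ end.

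Camk2d kept the 42-base exon in most of its transcripts, at 76.9% of TPM in pup 1 and 99.5% in pup 3. The 60-base exon just upstream of it was in 55.3% in pup 1 and 3.15% in pup 3. Camk2d-206, which has both, led in pup 1 with 49.7%, and Camk2d-202, which has the 42-base exon alone, led in pup 3 with 83.6%. In pup 1 Camk2d-202 held 19.4% and Camk2d-218 15.2%, and Camk2d-220, a 640-base model, held 10.2% and 12.9% of TPM in pups 1 and 3. The leading models Camk2d-206 and Camk2d-202 have nearly the same 3′ untranslated length, 2152 and 2154 bases. As for Camk2g, the leading Camk2d models differ inside the gene.

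**Figure D3:**
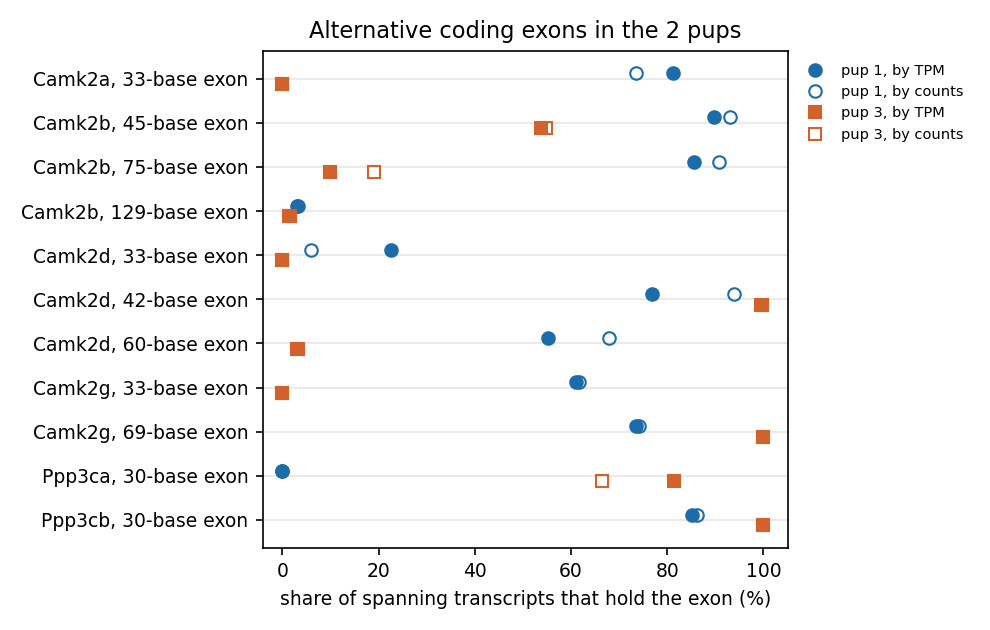
Share of spanning transcripts that hold each alternative exon (%), for pup 1 (circles) and pup 3 (squares), by TPM (filled) and by counts (open); 1 library per pup. The 33-base exons of Camk2a, Camk2d and Camk2g are at 0% in pup 3, and the Ppp3ca exon is at 0% in pup 1 and 81.5% of TPM in pup 3.

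The calcineurin genes had no common order in the 2 pups. Ppp3r1 (ENSMUSG00000033953.10, chromosome 11, 17159263 to 17200375, plus strand), for the calcium-binding B subunit, was at 112 TPM in pup 1 and 44.1 TPM in pup 3 (mean 78.3 ± 48.3). Ppp3ca (ENSMUSG00000028161.13, chromosome 3, 136670124 to 136937727, plus strand), for the alpha form of the catalytic subunit, was at 25.8 and 70.9 TPM (mean 48.4 ± 31.9). Ppp3cb (ENSMUSG00000021816.6, chromosome 14, 20499364 to 20546573, minus strand), for the beta form, was at 58.5 and 35.6 TPM (mean 47.0 ± 16.1). Ppp3r1 and Ppp3cb were higher in pup 1 and Ppp3ca in pup 3. Gene models of the reference overlap Camk2a (2 microRNA genes), Camk2d (several unnamed Gm models), Ppp3r1 (Wdr92, same strand), Ppp3cb (1810062O18Rik, opposite strand) and Ppp3ca (Gm42822, same strand, and others), and since the strand setting of the counting is not given in the sources used here, reads in shared stretches cannot be assigned with certainty.

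Ppp3ca over Ppp3cb gave a log2 ratio of -1.15 in pup 1 and 0.97 in pup 3, so no direction is given for this pair. The means of the 2 genes, 48.4 and 47.0 TPM, are nearly equal only because the pups point opposite ways. Ppp3r1 over Ppp3ca likewise changed sign, from 2.08 to -0.67. Ppp3r1 over Ppp3cb was 0.93 and 0.30 (mean 0.62 ± 0.45), with Ppp3r1 higher in both. In pup 3 that direction rests on the length correction, since the genes were level by counts (2775 and 2768). The A subunit genes together stood at 0.749 times Ppp3r1 in pup 1 and 2.41 times in pup 3. At 1 fixed length per gene Ppp3ca came to 39.1 in pup 3, under Ppp3r1 at 44.1, so the top place of Ppp3ca in pup 3 depends on the transcript length used, while its place above Ppp3cb (32.6) does not. Ppp3cc, the third catalytic gene, had 0 counts in both pups, and Ppp3r2, the other B subunit gene, known from testis, had 0 counts in pup 1 and 3.36 TPM in pup 3.

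A 30-base exon (10 codons) towards the regulatory end of the catalytic subunit is alternative in both A genes. The exons are printed because the shares assigned to transcripts that hold them differed between the paralogues in pup 1. Of 30 bases 26 are identical, and capitals mark the 4 that differ. They lie at chr3:136932011-136932040 (plus strand) and chr14:20503247-20503276 (minus strand).
Ppp3ca: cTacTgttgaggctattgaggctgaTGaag
Ppp3cb: cCacAgttgaggctattgaggctgaAAaag

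In Ppp3ca transcripts with the exon had 0 of 1960 spanning counts in pup 1, and 81.5% of TPM (66.4% of counts) in pup 3. A floor of 3 counts is 0.153% of the 1960, but these are counts of whole transcripts, so that share does not bound the use of the exon. In Ppp3cb the exon was in 85.2% of TPM in pup 1 and 100% in pup 3. The 0 is an estimate over the whole transcript, and the files' upper bound for Ppp3ca-201 in pup 1 was 0.161 TPM, 0.623% of the spanning TPM. Pup 1 was thus assigned Ppp3ca without the exon and Ppp3cb mostly with it, and pup 3 was assigned both genes mostly with it. Ppp3ca-202, which lacks the exon, held 100% in pup 1, and Ppp3ca-201, which has it, 81.5% in pup 3. These models also differ at the end, with 2502 and 554 bases of 3′ untranslated sequence. Ppp3cb-205 led in both pups with 85.0% and 58.7%; beside it stood Ppp3cb-201 with 14.7% in pup 1 and Ppp3cb-202 with 41.0% in pup 3. Ppp3r1-201 held 99.9% and 100% of Ppp3r1.

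Over all 9 genes, 4 had the same leading transcript in both pups, Calm2, Calm3, Ppp3cb and Ppp3r1. Among all genes with 2 or more transcripts and at least 50 counts in each library the share with the same leader was 62.8% of 5311, and 65.1% of the 4108 of them at a mean of 20 TPM or more. The count of 4 was the same by counts, by posterior mean TPM and over coding transcripts alone. Calm2 and Ppp3r1 held nearly all their TPM in 1 model in each pup, and an equal leader follows from that alone. The leader differed in the 4 CaM kinase II genes and in Ppp3ca. Annotated models numbered from 2 for Ppp3r1 to 22 for Camk2d, with 3 for both Calm2 and Camk2g. The part of model number in this was not tested.

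**Figure D4:**
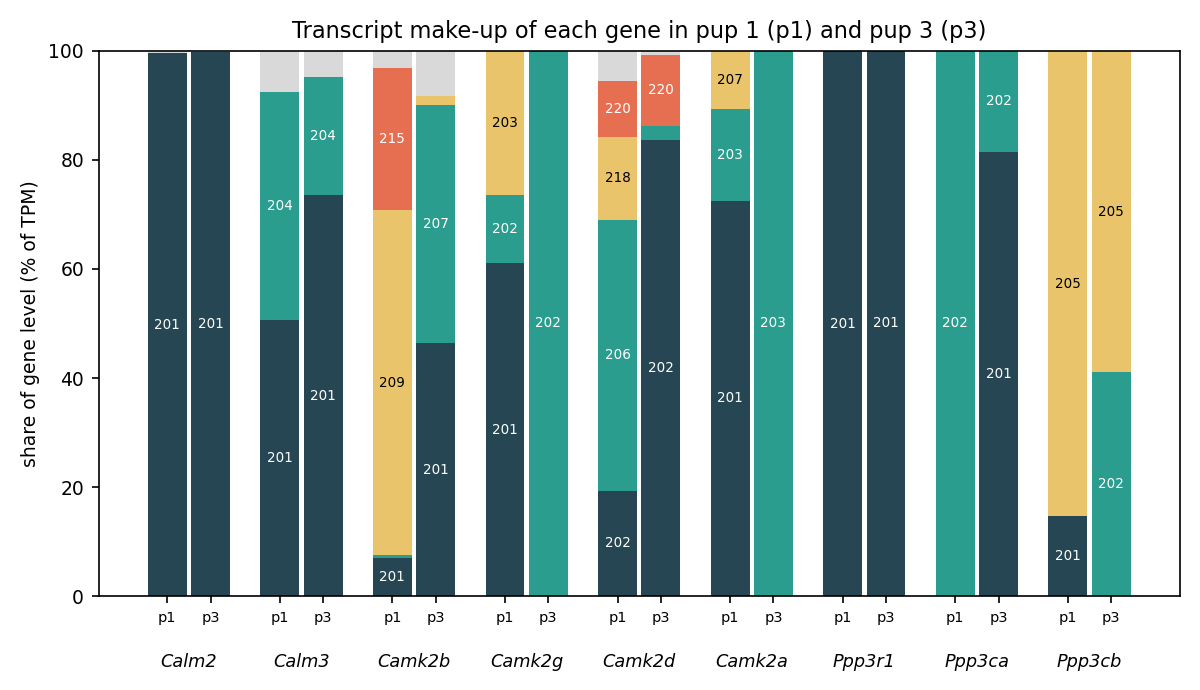
Transcript make-up of each gene (% of its TPM) in pup 1 (p1) and pup 3 (p3); segments are transcripts holding 10% or more in at least 1 pup, marked with the number of their GENCODE name, and grey is the remainder. The leading segment differs between the pups in Camk2b, Camk2g, Camk2d, Camk2a and Ppp3ca.

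The pups were also compared gene by gene on counts scaled to the library total, with an exact Clopper-Pearson interval for the ratio that covers counting error only. A gene was listed as over 4-fold apart when the whole interval lay beyond 4-fold. None of the 9 genes was, against 40.9% of the 14629 genes with a count in either library and 47.3% of those with 10 or more counts in at least 1 library. Most of those are low genes: the share was 22.3% at a mean of 20 TPM or more, and 36.3%, 16.4%, 5.49% and 0.929% in the classes of 20 to 50, 50 to 100, 100 to 300 and 300 or more TPM. At 2-fold, 1 member was listed, Ppp3r1, against 55.1% of all genes and 43.6% of those at 20 TPM or more. The median absolute log2 count ratio was 0.77 over the 9 genes and 0.93 over the 6031 genes at 20 TPM or more.

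Count ratios of pup 3 over pup 1 were above 1 for 3 members and below 1 for 6. Calm2 had the highest ratio with Ppp3ca close to it, 1.71 (interval 1.69 to 1.73) and 1.70 (1.61 to 1.80), and Calm3 followed with 1.38. Ppp3r1 had the lowest, 0.441 (0.421 to 0.462), followed by Camk2g with 0.531 and Camk2a with 0.543 (0.505 to 0.584). Ppp3cb, Camk2d and Camk2b lay nearer to 1, at 0.739, 0.781 and 0.905. Each of the 9 stayed on its side of 1 under all 5 scalings tried. By TPM, however, Camk2b and Calm3 changed side: the TPM ratio was 1.58 for Camk2b and 0.934 for Calm3. In both genes the mean transcript length used by the files differed between the pups, for Calm3 from 1410 to 1819 bases. The higher Camk2b level of pup 3 was thus not matched by more reads, and at 1 fixed length its ratio was 0.806.

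**Figure D5:**
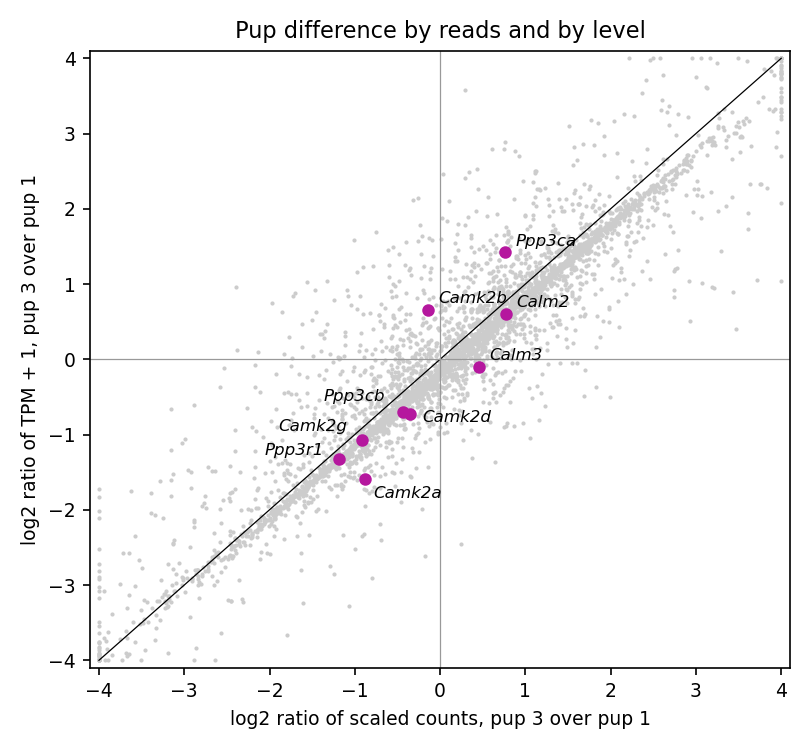
Log2 ratio of pup 3 over pup 1 by scaled counts (x axis) and by TPM + 1 (y axis) for the 9 genes (coloured, named) and for other genes at a mean of 20 TPM or more (grey, values beyond 4 drawn at 4); the diagonal marks equal ratios. Camk2b lies left of 0 by counts and above 0 by TPM, Calm3 the reverse, and Ppp3r1 is lowest by counts.

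The wider pathway was read from gene lists, by detection in both pups and by the 4-fold rule above. For comparison, over the 12144 genes detected in either pup 20.5% were more than 4-fold above in pup 3 and 25.9% were so in pup 1, and the median log2 ratio of TPM + 1 was -0.07. Of 10 CaM kinase II inhibitors, anchors and scaffold partners, 5 were detected in both pups. The NMDA receptor genes Grin1 (22.6 and 48.1 TPM) and Grin2b (33.4 and 30.1 TPM) and the actin crosslinker gene Actn2 (23.1 and 35.8 TPM) were among them, and Grin2a and Lrfn2 had 0 counts. Dlg4, for the postsynaptic scaffold PSD-95, was at 40.1 TPM in pup 1 and 0.06 TPM in pup 3. Pup 3 was more than 4-fold above pup 1 for 2 genes of the list and below it for 1.

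Other calmodulin-dependent kinases were detected in both pups for 11 of 15 genes, with Dapk2 and Mylk3 at 0 counts. Pnck, the beta form of CaM kinase I, led with 141 and 299 TPM, followed by the doublecortin-like kinase gene Dclk1 (111 and 139 TPM), Camk1g (58.6 and 101 TPM) and the pseudokinase gene Camkv (25.3 and 52.7 TPM). Each of these 4 was higher in pup 3, by less than 4-fold. Over this list 1 gene was over 4-fold apart in each direction and the median log2 ratio was 0.33. By TPM Pnck thus lay in the range of Camk2b in both pups, a likeness that depends on the transcript lengths used. By counts it had 2728 in pup 1 and 8693 in pup 3, against 8836 and 9954 for Camk2b.

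Of 14 genes for calmodulin-binding proteins, listed as stores and buffers, 10 were detected in both pups, with Spa17 at 0 counts. Besides genes for calmodulin stores, the list holds others for calmodulin-binding proteins, among them Add1, Iqgap1 and Camsap1. Gap43, the growth cone protein that binds calmodulin at low calcium, was at 2215 and 2400 TPM, near Calm2. Pcp4 followed with 380 and 893 TPM, then Marcksl1 (279 and 426 TPM) and Marcks (119 and 341 TPM). Of calmodulin-dependent effectors 8 of 17 were detected in both, led by the spectrin gene Sptan1 (302 and 209.6 TPM), Camta1 (55.7 and 104 TPM), Rasgrf1 (34.2 and 39.7 TPM) and the plasma membrane calcium pump gene Atp2b1 (42.6 and 15.8 TPM). Adcy3 and Itpka had 0 counts. Beyond 4-fold, 3 effector genes were higher in pup 3 and 5 in pup 1; the store list held 0 and 3.

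Calcineurin regulators, anchors and immunophilins were detected in both pups for 10 of 13 genes, with Itpkb at 0 counts. Ppia, for cyclophilin A, was at 2493 and 4574 TPM, and Fkbp1a, for FKBP12, at 306 and 662 TPM; their proteins bind the drugs cyclosporin and FK506 that block calcineurin. The phosphatase-1 inhibitor gene Ppp1r1a followed (50.4 and 137 TPM), then Cib1 (28.8 and 84.2 TPM). A further list held 12 transcription factor and coactivator genes, set up around calcineurin targets but not limited to them. Of these, 3 were detected in both pups and 4 were over 4-fold apart in each direction. Crtc1 led with 64.7 and 36.3 TPM, before Mef2a (6.67 and 36.6 TPM), Nfat5 (0.87 and 20.97 TPM) and Mef2c (13.7 and 2.70 TPM). Mean levels were lower for Nfatc1 (1.51 and 0.01 TPM), Nfatc2 (0.14 and 0.02 TPM) and Nfatc3 (0.86 and 5.15 TPM). Nfatc4 and Crtc2 had 0 counts.

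Other calcium sensors and buffers were detected in both pups for 13 of 22 genes. Ncald led with 318 and 489.8 TPM, followed by Vsnl1 (270.2 and 317 TPM), Hpcal1 (206 and 243 TPM) and the calretinin gene Calb2 (239 and 169.8 TPM), while Pvalb, Rcvrn and Necab3 had 0 counts. Voltage-gated calcium channel subunits were detected in both for 9 of 15, led by the beta and alpha-2-delta subunits Cacnb3 (95.1 and 86.9 TPM), Cacna2d1 (22.3 and 56.8 TPM) and Cacnb1 (31.7 and 38.9 TPM), then Cacna1g (2.42 and 56.9 TPM); Cacna1i and Cacna2d3 had 0 counts. Store channels and pumps were detected in both for 6 of 15, with Itpr3, Stim1 and Stim2 at 0 counts. The chaperone genes Calr (249 and 579.7 TPM) and Canx (267 and 240.4 TPM) led, then Atp2a2 (40.2 and 53.5 TPM) and Orai2 (40.4 and 45.1 TPM). Calr is known as a calcium buffer of the endoplasmic reticulum, and Atp2a2 encodes its calcium pump.

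The protein-coding genes nearest to 3 members in level over the 2 pups, by Euclidean distance of log2(TPM + 1), were as follows. Camk2b had Esd, Wsb1 and Cldnd1, Camk2a had 9330159F19Rik, Smarcd3 and Sike1, and Ppp3ca had Tnfaip8, Tmem107 and Ccnd3. With 2 libraries such likeness says only that the levels are close.

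Markers of other cell types were detected beside the neuronal ones. Astrocyte and radial glia markers were detected in both pups for 7 of 8 genes, with a sum of 2444 and 2719 TPM, led by Fabp7, Aldoc and Vim, and with Gfap at 0 counts. Oligodendrocyte lineage markers summed to 143 and 115 TPM (4 of 8 in both, led by Mbp, Pdgfra and Cnp, Mag at 0 counts), microglia markers to 153 and 125 TPM (5 of 8, led by C1qc, Ctss and C1qb, Tmem119 at 0), and endothelial and mural markers to 257 and 263 TPM (5 of 8, led by Cldn5, Vtn and Rgs5, Slco1a4 at 0). Of these leading genes Cnp was at 35.1 TPM in pup 1 and at 0 counts in pup 3. The pan-neuronal sum was 9784 TPM in pup 1 and 7321 TPM in pup 3. The part of these cell types in the levels of the 9 genes was not tested.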

How the data were processed

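Each of 2 libraries has 1 gene and 1 transcript table. The authors deposited expected counts (estimated, with reads that match several features divided), TPM and FPKM, each transcript's percent of its gene, and bounds of a 95% TPM interval, a signal on the TPM scale. Assembly mm10 and GENCODE M4 are named, per the file headers and per the labels; the aligner, quantifier and strand setting were not given in the sources used here. Symbols matched 42462 of 43346 gene identifiers, and structures, coordinates and sequences came from GENCODE M21 (GRCm38).

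Pairs were compared as log2(TPM + 1) within a library; a direction was given where the sign was equal in the 2 pups and the TPM intervals lay apart in each (10 pairs). Pup ratios used whole-number rounded counts over the mouse gene total with exact 95% intervals; edgeR 4.0.16 and DESeq2 1.42.0 gave alternative scaling factors only. Other alternatives were pseudocounts of 0.1 and 10, FPKM, posterior mean TPM, uncorrected counts, 1 fixed length per gene, spike-in scaling, and leaving out a pup. The text names all members, transcripts at 10% or more in a pup, the 4 highest genes per pathway list (3 per marker list) and genes at 0 counts in both pups. Not every gene this rule selects is reported here. Members and lists were chosen with earlier results of these data known, and exons and fixed lengths after transcript values were seen. Python 3.11.15 and scipy 1.17.1 were used.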

Additional observations from a re-analysis of the deposited data

How the results depend on the processing

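Under the alternatives run, Camk2b stayed above Camk2a, Camk2g and Camk2d, Calm2 stayed above Calm3, Ppp3ca against Ppp3cb had no direction over both pups, and the detection of all 9 members was the same; no called value reversed. With 1 fixed length per gene the log2 ratio of Calm2 over Calm3 moved from 2.79 to 3.33, by more than the SD between pups, that of Camk2b over Camk2g from 1.10 to 0.50, and the mean level of Camk2b from 196 to 125 TPM-like units. With a 2-fold in place of a 4-fold limit, 1 member was listed as apart between the pups. Leaving out a pup in turn left ranges of 2.06 to 4.31 for Camk2b over Camk2a, 0.24 to 1.97 over Camk2g, 1.47 to 2.86 over Camk2d, 2.44 to 3.14 for Calm2 over Calm3, and -1.15 to 0.97 for Ppp3ca over Ppp3cb, and 9 members were detected in either pup. No paired analysis was possible because there is a single group of 2 pups. Reads are divided among transcript models by estimation, so transcript shares, 0 included, carry an error that the gene counts do not show. The fixed lengths were added after the data were seen.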
